A study of Mus musculus with 6 samples.

Results

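Small nucleolar RNAs were measured by 66 of the 65956 features of a mouse expression array that were not control features. They were chosen as every feature whose annotated symbols all start with Snord or Snora, and they name 62 RNAs. Of these features, 47 carry Snord symbols (box C/D class, 44 RNAs) and 19 carry Snora symbols (box H/ACA class, 18 RNAs). No 2 of the 66 profiles were identical over the arrays, so each was counted. The 2 features of Snord58b differed by at most 0.1 on the log2 scale in every array. The RNA came from mouse embryonic stem cells of a line called iRunx, grown as embryoid bodies for 4 days and sorted by flow cytometry for Flk1 without PDGFRα (PDFGRα in the labels), a fraction with precursors of blood and endothelium. Of the 6 arrays, 3 held control cells (controls 1 to 3) and 3 held cells that carried a retrovirus with HOXB4, a homeodomain factor that expands blood progenitors, marked by tdTomato (HOXB4 1 to 3). Both groups share the iRunx line. What its name stands for, whether controls carried an empty virus and whether the line is 1 clone were not stated in the labels. Per the series text, the 3 arrays of a group come from separate experiments. In the text below, 3 values of a group follow the order of the replicate numbers.

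Small nucleolar RNAs guide the modification of ribosomal RNA in the nucleolus. Box C/D RNAs pair with their target and direct the methylation of a ribose by fibrillarin, and box H/ACA RNAs direct the conversion of uridine to pseudouridine by dyskerin. A few members of each class cleave or fold the ribosomal precursor and do not modify it. In mammals most are cut out of introns of ribosomal protein genes, translation factor genes or noncoding host genes, so a host transcript and its snoRNA arise from the same precursor and then have separate lives. Growing progenitor cells make many ribosomes.

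Values are the authors' deposited log2 summaries, 1 per feature and array. A level on this scale depends on the probes of a feature, so it is compared between arrays and not between RNAs. The snoRNA features were bright as a group, with a median level of 11.58 over the 6 arrays against 4.63 for all features. Of the 66, 65 lay at least 1 log2 unit above the array background, a median of 3.09 over 23 background features, while 66.2% of all features did. The exception was Snora35, which lies in the serotonin receptor gene Htr2c and is known from brain. Its values were 4.02, 3.96 and 3.58 in the control arrays, against 3.72, 3.61 and 3.68 with HOXB4. The Flk1 gene Kdr was bright in every array (13.68 to 14.33), and the feature of Pdgfra also names a microRNA, so it did not check the sort. Because the RNA is from bulk cells, fewer cells of a type and less RNA per cell cannot be told apart.

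Most snoRNA features were lowest in a single control array. Control 3 held the lowest of the 6 values for 45 of the 66 features, 32 of the C/D and 13 of the H/ACA class. Among all features control 3 was lowest for 16.4%, and among the 11253 features with a mean of 8 or more for 9.62%. Control 2 held the highest value for 27 of the 47 C/D features and 5 of the 19 H/ACA features, beside 9820 of all 65956 features. Among the 11253 features with a mean of 8 or more it did so for 1721. In the H/ACA class HOXB4 2 was highest for 8. After each feature was set against its own mean over the 6 arrays, the median C/D deviation was 0.09, 0.32 and -0.41 in the control arrays, against -0.24, 0.10 and 0.07 with HOXB4. The median H/ACA deviation was -0.03, 0.20 and -0.40 in the control arrays, against -0.12, 0.31 and 0.14 with HOXB4. Over all features these medians stayed between -0.04 and 0.05. The low values of control 3 were shared by other short structured RNAs: its median deviation was -0.31 over 6 Cajal body RNAs (Scarna) and -0.27 over 23 distinct Rnu and Rny profiles, which are spliceosomal, U3 and Y RNAs. It was not shared by the genes that contain the snoRNAs, where control 3 had a median deviation of 0.08. For microRNA features it had -0.03. Their median level was 4.80, and 67.8% lay at least 1 log2 unit above background, beside 66.2% of all features. The brighter microRNA features were not tested apart. Of 8 listed markers of blood and endothelial precursors, the endothelial gene Pecam1 had the widest range. It stood at 8.10, 10.63 and 7.96 in the control arrays, against 11.75, 7.75 and 10.71 with HOXB4. In Pecam1, Kdr, Tal1, Lmo2, Fli1, Cdh5 and Tek, control 2 was the highest control and HOXB4 2 the lowest HOXB4 array. Etv2 went the other way, at 12.31, 11.75 and 12.33 in the control arrays, against 9.58, 12.06 and 10.16 with HOXB4. The part of cell composition and of RNA quality in the low snoRNA values of control 3 was not tested.

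**Figure D1:**
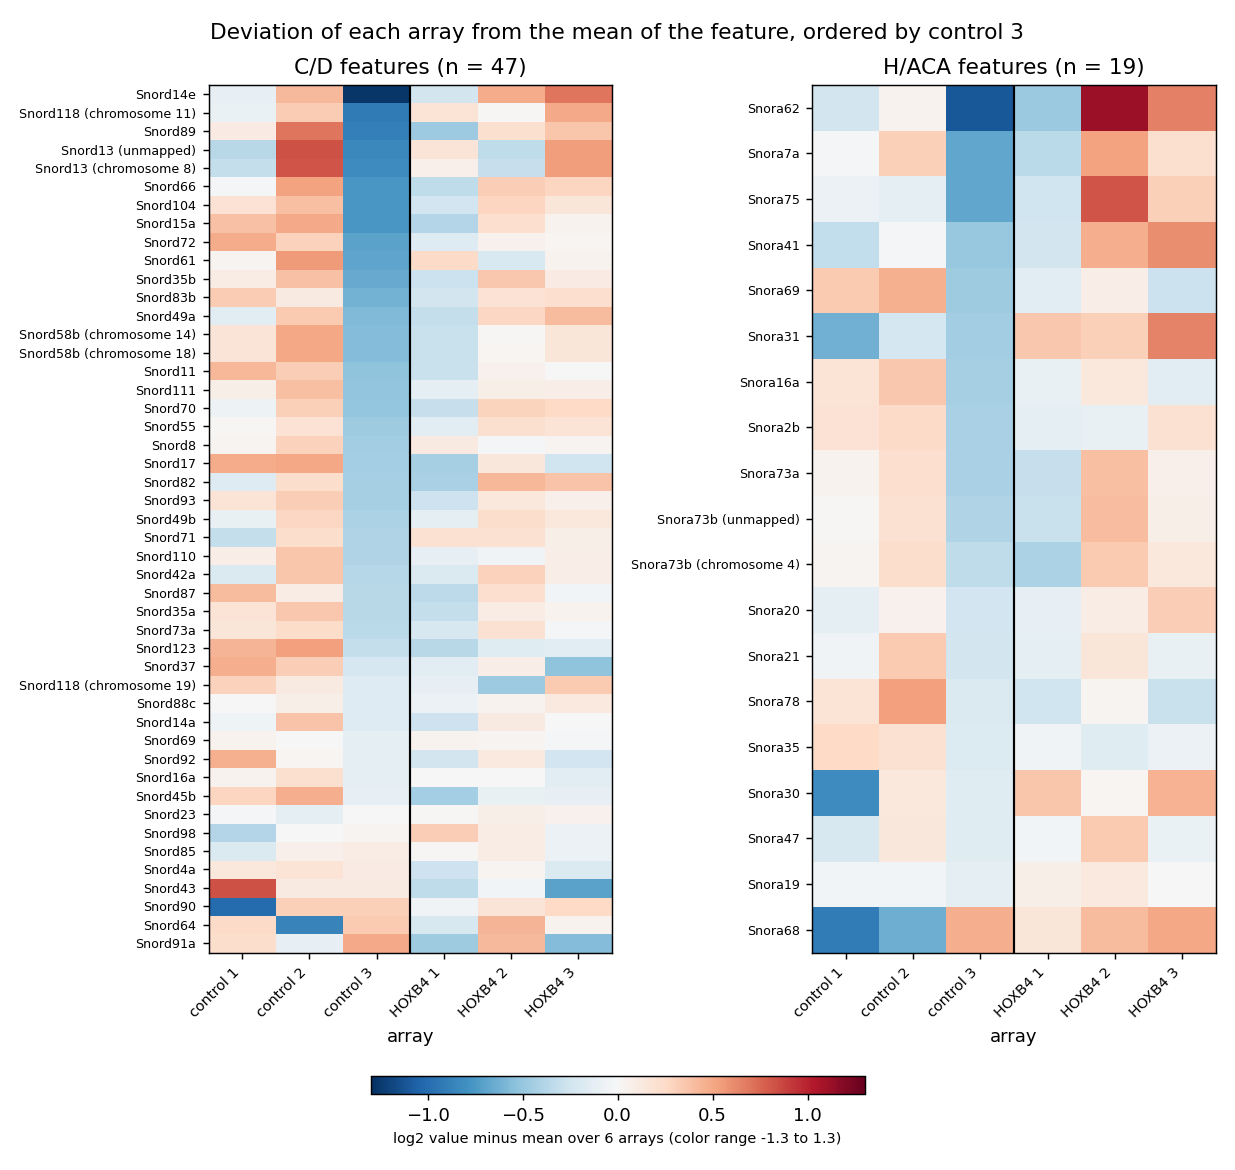
Each row is a snoRNA feature and each column an array, with C/D features on the left and H/ACA features on the right. Color gives the log2 value minus the mean of that feature over the 6 arrays, and rows are ordered by control 3; the black line parts controls from HOXB4 arrays. Control 3 is the lowest array in 45 of the 66 rows, and Snora68, Snord64, Snord90 and Snord91a at the foot are among those that go another way.

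The classes were then compared, HOXB4 minus control. With Benjamini-Hochberg adjustment over all 65956 features, limma called 0 snoRNA features at 0.05 and 0% of all features. At an unadjusted p below 0.05, 2 of 19 H/ACA features lay higher and 3 of 47 C/D features lay lower, with 0 in the opposite direction of each class. Of all features 4.64% lay higher and 4.42% lower at that p, and of features with a mean of 8 or more 9.7% and 8.52%, so the members' shares were near the background. The median difference was 0.13 for the H/ACA class, with 13 of 19 features above 0, and 0.05 for the C/D class, with 26 of 47 above 0. Over all features the median was -0.02 and 44.4% lay above 0, as did 45.9% of those with a mean of 8 or more. Every HOXB4 value lay above every control value for 2 H/ACA features (Snora31 and Snora19) and 1 C/D feature (Snord23), and below for 0 H/ACA and 2 C/D features (Snord43 and Snord4a). The background was 5.85% above and 8.53% below over all features, and 9.47% and 14.1% over those with a mean of 8 or more.

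These class values rest on control 3. Without it, 10 of 47 C/D features and 9 of 19 H/ACA features lay above 0, and the medians were -0.21 and -0.02. Then 14 C/D features and 4 H/ACA features had every HOXB4 value below both remaining controls, beside 18.4% of all features. Wholly above them lay 1 C/D and 3 H/ACA features, beside 11.8%. Without control 2, 34 C/D and 16 H/ACA features lay above 0, with medians of 0.15 and 0.25, and 5 C/D and 6 H/ACA features lay wholly above the remaining controls, beside 9.67% of all features. Without HOXB4 1 the H/ACA median was 0.29 and 6 H/ACA and 3 C/D features lay wholly above, beside 10.1%. Without HOXB4 2 the medians were 0.04 for H/ACA and -0.0015 for C/D, and 4 C/D features and 1 H/ACA feature lay wholly below, beside 17.7%. Wholly above lay 1 C/D and 3 H/ACA features, beside 11.8%. Without HOXB4 3 the C/D median was -0.0063, and 2 C/D features lay wholly above, beside 8.82%.

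Within an array the classes could be set against each other, which takes out what they share. The median C/D level minus the median H/ACA level was 0.13, 0.14 and -0.25 in the control arrays, against -0.06, -0.40 and -0.08 with HOXB4. The groups overlapped through control 3, and the HOXB4 mean lay 0.19 below the control mean, less than the replicate SD of 0.21. With the deviations from each feature's own mean, a measure chosen after the values were seen, the difference of the classes was 0.12, 0.12 and -0.01 in the control arrays, against -0.11, -0.22 and -0.07 with HOXB4. On that measure all 3 HOXB4 arrays lay below all 3 controls, by 0.21 on average. The alternative runs used the median levels and not the deviations. On the levels the class difference kept its sign in each run, from -0.32 (without control 3, and with dim features left out) to -0.08 without HOXB4 2. Of the members the dim filter took out only Snora35, so this measure depends on single features. The class difference is a description of 2 chosen lists and carries no test.

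**Figure D2:**
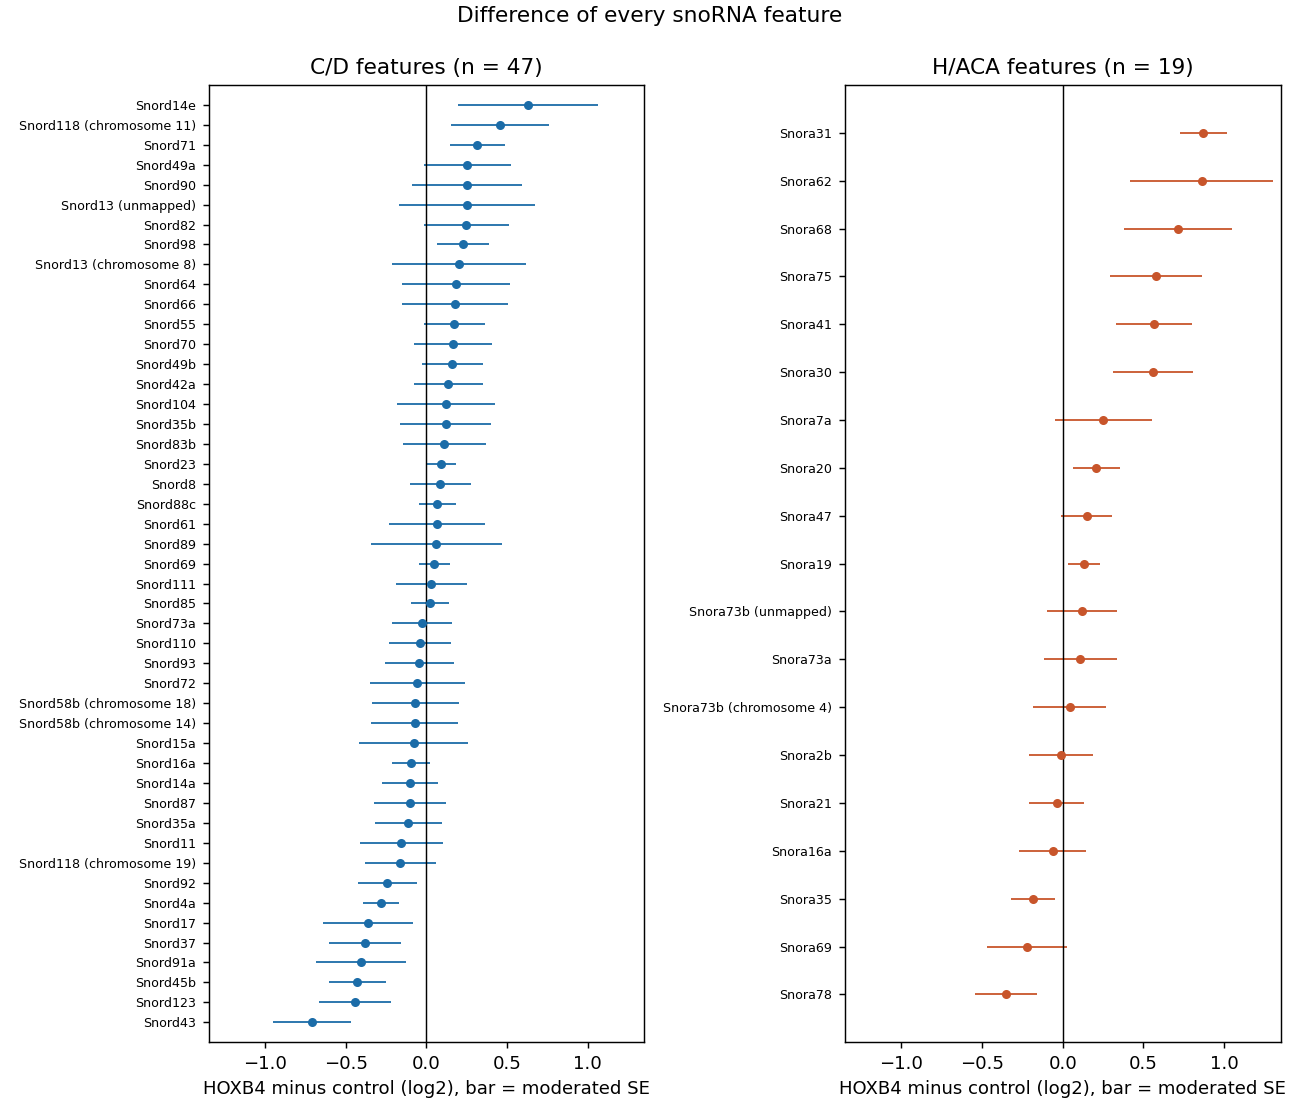
Points give the HOXB4 minus control difference of each snoRNA feature on the log2 scale with its moderated standard error (3 arrays a group), C/D on the left and H/ACA on the right, ordered by size. The H/ACA panel has 6 features between 0.56 and 0.87, while the C/D panel runs from -0.71 (Snord43) to 0.63 (Snord14e); none passed the adjusted test.

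Among the H/ACA pseudouridylation guides, Snora31 had the largest difference of all 66 features. It lies in an intron of Tpt1, which encodes the translationally controlled tumour protein. Snora31 stood at 11.09, 11.49 and 11.27 in the control arrays, against 12.07, 12.03 and 12.36 with HOXB4. The HOXB4 arrays all lay above the controls, with group means of 11.28 ± 0.20 and 12.15 ± 0.18 (SD, n = 3 each). The difference was 0.87 (SE 0.15), or 1.83-fold, with an unadjusted p of 4.9e-04 and a limma adjusted p of 0.341. It ran from 0.77 to 0.97 when 1 array was left out, and the adjusted p from 0.138 to 0.817 over all alternatives. Snora31 was higher in 3 of 3 HOXB4 arrays and did not pass the adjusted test.

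The H/ACA guide Snora19, in the initiation factor gene Eif3a, also had no overlap but differed by 0.13 (SE 0.10). Its values were the same as those of another feature that names Mir3084 with Snora19. A further 5 H/ACA features differed by more than 0.5, each with overlap between the groups. Snora41, in the elongation factor gene Eef1b2, stood at 10.55, 10.85 and 10.38 in the control arrays, against 10.64, 11.35 and 11.48 with HOXB4, a difference of 0.56 (SE 0.24). HOXB4 1 lay among the controls, and without it the difference was 0.82. Snora30, in the chromatin remodeller gene Srcap, stood at 9.03, 9.99 and 9.69 in the control arrays, against 10.22, 9.87 and 10.31 with HOXB4. Its difference of 0.56 (SE 0.25) came to 0.29 without control 1, which lay lowest. Snora68 stood at 13.20, 13.48 and 14.59 in the control arrays, against 14.27, 14.53 and 14.62 with HOXB4. Control 3 lay within the HOXB4 values of Snora68, against its low place in most snoRNAs, and the difference of 0.72 (SE 0.34) was 1.13 without control 3 (limma adjusted p = 0.0713) and 0.44 without control 1.

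Snora75 comes from an intron of Ncl, the gene of the nucleolar protein nucleolin. It stood at 14.72, 14.69 and 14.13 in the control arrays, against 14.54, 15.62 and 15.11 with HOXB4, a difference of 0.58 (SE 0.29) that was 0.31 without HOXB4 2. Snora62, in the ribosomal protein gene Rpsa, falls outside the rule for named members and was chosen after its values were seen, for its size. It stood at 10.77, 11.05 and 9.91 in the control arrays, against 10.53, 12.12 and 11.67 with HOXB4, a difference of 0.86 (SE 0.44). That difference was 0.53 without control 3, 0.52 without HOXB4 2 and 1.31 without HOXB4 1. In Snora41, Snora75 and Snora62 alike, HOXB4 2 and 3 lay above every control and HOXB4 1 did not. The limma adjusted p of these 5 members lay between 0.545 and 0.604.

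With all 6 arrays, 6 of the 19 H/ACA features leaned lower, and without control 3 only 9 of the 19 lay above 0. Snora78, within the noncoding gene Snhg9, stood at 11.15, 11.50 and 10.79 in the control arrays, against 10.71, 11.004 and 10.68 with HOXB4, a difference of -0.35 (SE 0.19). Snora69, in Rpl39, differed by -0.22 (SE 0.25), with control 3 lowest of all arrays at 12.16. The bright guides Snora16a and Snora21, in Snhg12 and Rpl23, differed by -0.06 (SE 0.21) and -0.04 (SE 0.17), and their signs turned when 1 array was left out. Without control 2 the difference of Snora78 was -0.17 and that of Snora69 -0.05, and without control 3 they were -0.53 and -0.51. Snora69 stood at -0.11 without control 1 and at -0.14 without HOXB4 3.

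Snora73a and Snora73b form the subgroup of H/ACA RNAs that act in cleavage of the small-subunit precursor, and both lie in the noncoding gene Snhg3. Their 3 features differed by less than their standard errors. Snora73a stood at 13.17, 13.34 and 12.70 in the control arrays, against 12.83, 13.52 and 13.19 with HOXB4, a difference of 0.11 (SE 0.22). The 2 features of Snora73b differed by 0.04 (SE 0.23) and 0.12 (SE 0.22). In all 3, control 3 and HOXB4 1 were the lowest arrays and HOXB4 2 the highest.

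Among the C/D methylation guides, the lower values came with the smallest p. Snord43 lies in the ribosomal protein gene Rpl3 and stood at 11.50, 10.78 and 10.79 in the control arrays, against 10.34, 10.63 and 9.98 with HOXB4. The groups did not overlap, and the difference was -0.71 (SE 0.24, limma adjusted p = 0.508), or -0.47 without control 1, the highest array. Snord4a, in Rpl23a, stood at 10.11, 10.15 and 10.07 in the control arrays, against 9.70, 10.001 and 9.78 with HOXB4. Its controls lay close together, the groups did not overlap, and the difference was -0.28 (SE 0.11, limma adjusted p = 0.540). Snord45b, in the prenyltransferase gene Rabggtb, stood at 9.98, 10.17 and 9.59 in the control arrays, against 9.26, 9.60 and 9.59 with HOXB4, a difference of -0.43 (SE 0.18). Snord123, within Snhg18, stood at 7.98, 8.07 and 7.23 in the control arrays, against 7.18, 7.37 and 7.39 with HOXB4, a difference of -0.44 (SE 0.22). For Snord45b and Snord123 control 3 lay within the HOXB4 range, and without it the differences were -0.59 and -0.71, while without control 2 they were -0.30 and -0.29.

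The C/D features that leaned higher all overlapped between the groups, apart from Snord23. Snord14e is encoded in the heat shock cognate gene Hspa8 and belongs to a family needed to process the small-subunit RNA. It stood at 12.90, 13.42 and 11.74 in the control arrays, against 12.77, 13.49 and 13.70 with HOXB4, a difference of 0.63 (SE 0.43) that was 0.16 without control 3 and 1.00 without control 2. Snord71, in the clathrin adaptor gene Ap1g1, stood at 11.10, 11.63 and 11.01 in the control arrays, against 11.60, 11.60 and 11.48 with HOXB4, a difference of 0.31 (SE 0.17). For Snord71 control 2 lay just above the HOXB4 arrays. Without control 2 the difference was 0.51 and without control 3 it was 0.20. Snord98, in Ccar1, differed by 0.23 (SE 0.16), or 0.09 without control 1, its lowest array, and 0.12 without HOXB4 1, its highest. Snord23, in the ribosome assembly gene Nop53, had no overlap but differed by 0.09 (SE 0.09).

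Some C/D RNAs act in cutting, folding or acetylation of ribosomal RNA. Snord118, made from its own promoter and needed for the large subunit, has 2 features. The feature placed on chromosome 11, where the RefSeq gene lies, stood at 10.94, 11.36 and 10.11 in the control arrays, against 11.20, 11.05 and 11.52 with HOXB4. Its difference of 0.46 (SE 0.31) was 0.11 without control 3 and 0.73 without control 2. The feature placed on chromosome 19 lay near background in every array, between 3.62 and 4.43, and differed by -0.16 (SE 0.22). Snord13, which helps acetylate the small-subunit RNA and also has its own promoter, stood at 13.40, 14.53 and 12.89 in the control arrays, against 13.77, 13.40 and 14.25 with HOXB4 on its chromosome 8 feature. The 2 features of Snord13 differed by 0.20 (SE 0.41) and 0.25 (SE 0.42), and control 2 was highest and control 3 lowest in both. Snord14a, in Rps13, differed by -0.10 (SE 0.17). The U3 RNA, the most abundant C/D RNA, carries Rnu3 symbols here and so is no member; its Rnu3a and Rnu3b features all differed by between -0.23 and -0.06, with overlap in all of them.

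The 4 brightest C/D features differed by no more than their standard errors. Snord69, in the nucleostemin gene Gnl3, stood between 18.81 and 18.98 in the 6 arrays and differed by 0.05 (SE 0.10). Snord16a (Rpl4), Snord49b (the noncoding 2410006H16Rik) and Snord110 (Nop56) differed by -0.09, 0.16 and -0.04, with SE of 0.12, 0.19 and 0.19. Snord35a of Rpl13a, from a group of RNAs known for a role in lipid stress, differed by -0.11 (SE 0.21). Snord35a, Snord64, Snord23, Snora19 and the dim Snora35 fall outside the rule for named members and were chosen after their values were seen. Snord64, from the imprinted Snhg14 region expressed from the paternal allele, stood at 8.99, 7.87 and 9.08 in the control arrays, against 8.53, 9.18 and 8.78 with HOXB4. Control 2 was lowest there, and the difference was 0.18 (SE 0.34). Clusters Snord115 and Snord116 had no feature of their own, and the 1 distinct profile that names Snord116l1 or Snord116l2 together with Ipw differed by 0.51 (SE 0.25).

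**Figure D3:**
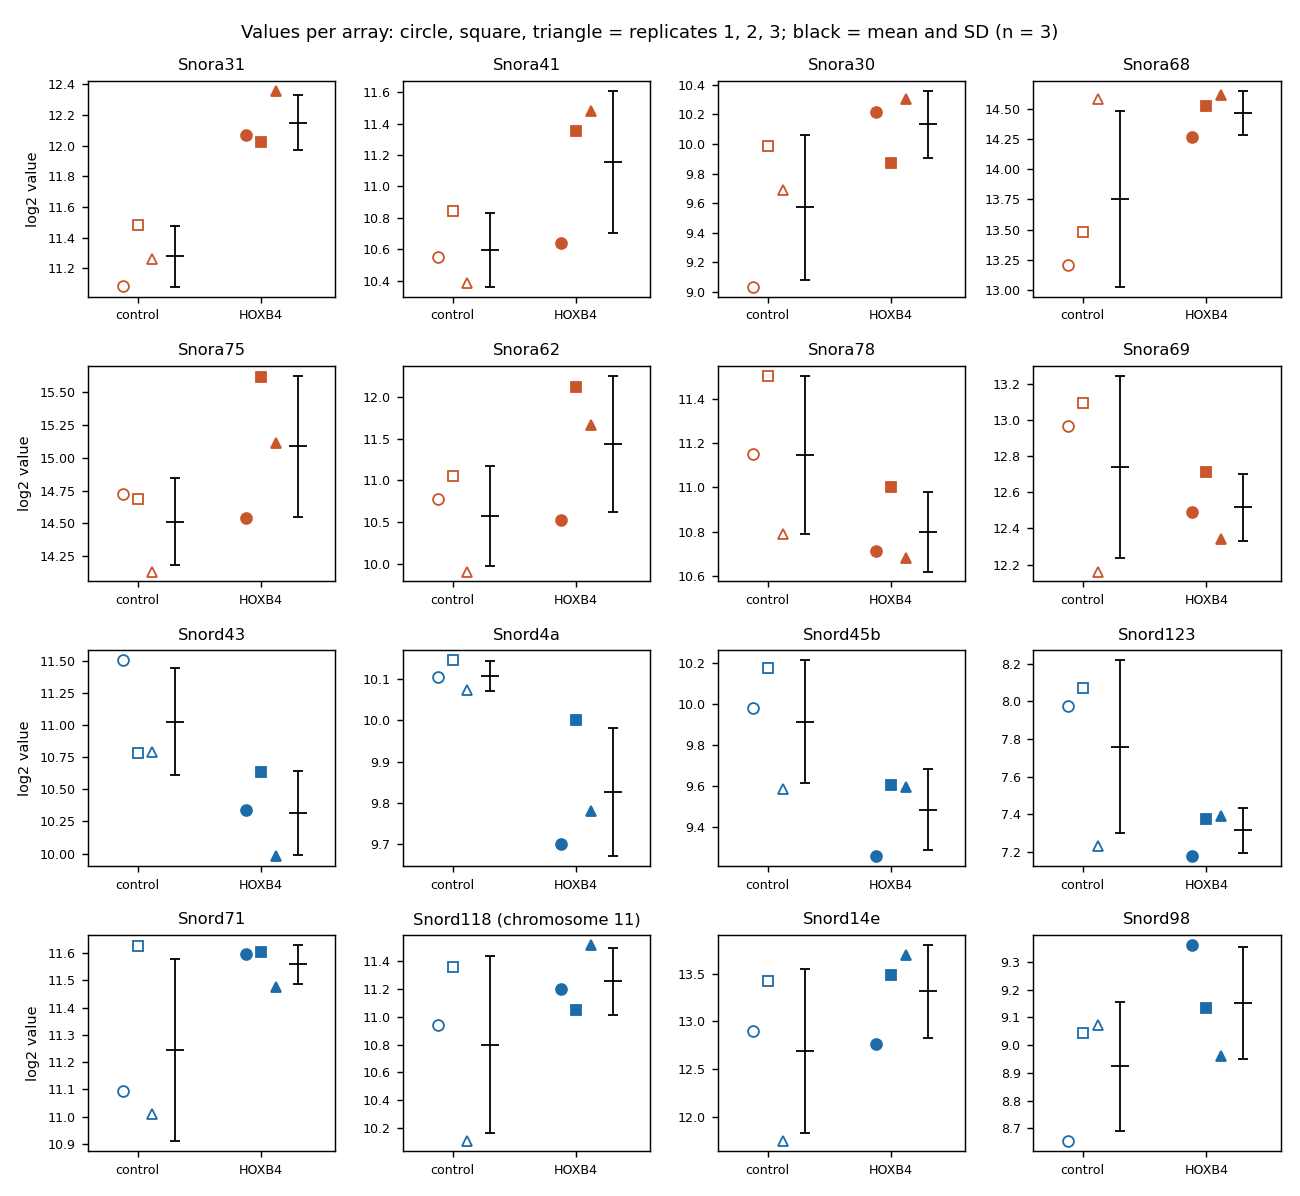
Log2 values per array of 16 snoRNA features, H/ACA in orange in the upper 2 rows and C/D in blue in the lower 2 rows, each panel with its own axis that does not start at 0. Open symbols are controls and filled symbols HOXB4 arrays; bars give mean and SD (n = 3). The groups part in Snora31, Snord43 and Snord4a, while in Snord123 and Snord14e control 3 lies apart from the other controls.

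Most snoRNAs sit inside a host gene, so their values were set beside those of the hosts. A RefSeq gene contained the snoRNA gene for 61 of the 66 features, and a host feature was measured for 53 of them (45 hosts). For 32 features (30 hosts) it named the host alone; the others also name snoRNAs or gene copies. The host features leaned lower: 37 of 45 were below 0, with a median difference of -0.15. For 11 of them every HOXB4 value lay below every control, beside 8.53% of all features and 14.1% of those with a mean of 8 or more. Of all features 44.4% lay above 0, and of those with a mean of 8 or more 45.9%. The 11 ribosomal protein hosts were all below 0, with a median of -0.19, and 4 had no overlap. The host median deviation was 0.10, 0.02 and 0.08 in the control arrays, against -0.10, 0.02 and -0.11 with HOXB4, so HOXB4 2 lay level with control 2. Of the 17 H/ACA features with a measured host, 15 had a difference above that of the host, as had 24 of the 36 C/D features. Without control 3 these counts were 13 of 17 and 15 of 36, with 33 of the 45 hosts below 0 at a median of -0.17. Members in ribosomal protein genes had a median of -0.06 (7 of 19 above 0) and members in other hosts 0.09 (28 of 42 above 0). Without control 3 the members in ribosomal protein genes had a median of -0.21 (2 of 19 above 0), and without control 2 or without HOXB4 1 they had 0.15 and 0.06, with 15 of 19 above 0 in either case.

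Some members differed in sign from their host and others did not. Tpt1, the host of Snora31, differed by -0.17 (SE 0.10) where Snora31 differed by 0.87. Rpl3, the host of Snord43, lay on the same side as Snord43, at -0.19 (SE 0.09) on a feature that also names a gene copy. Ncl differed by -0.25 (SE 0.14), Eef1b2 by -0.19 (SE 0.11) and Rpsa by -0.22 (SE 0.12), against 0.58, 0.56 and 0.86 for Snora75, Snora41 and Snora62, whose groups overlap. Srcap stood at 0.32 (SE 0.16), on the same side as Snora30 at 0.56. Across the 32 features with a host measured alone, 19 had the sign of the host, and the correlation of the 2 differences was r = 0.26. These points share the 6 arrays and some share a host.

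**Figure D4:**
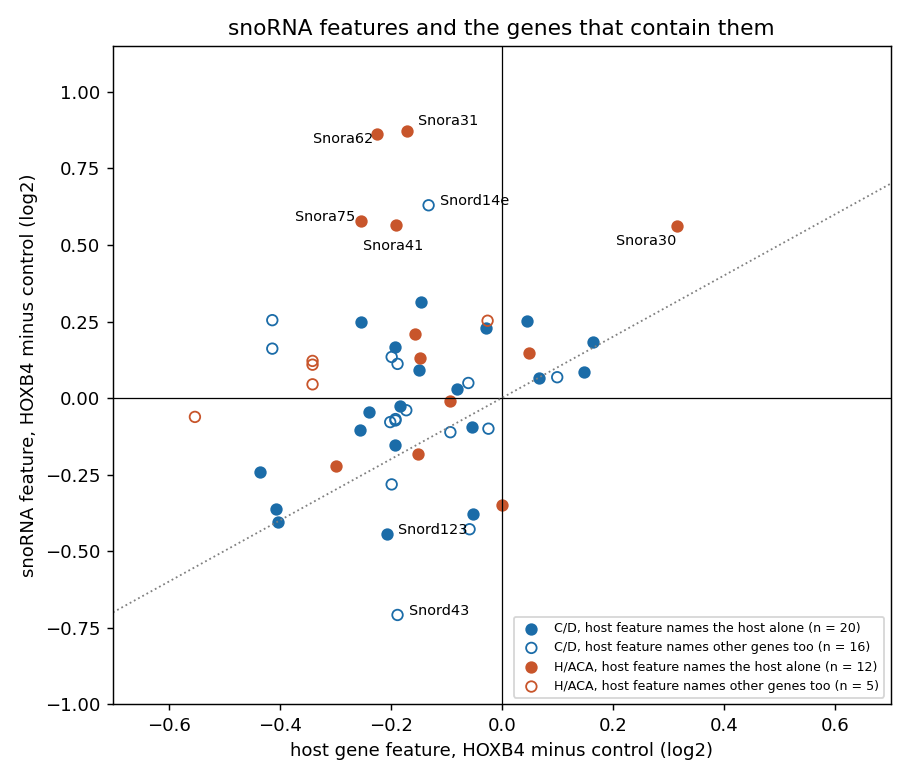
Each point is a snoRNA feature with a measured host gene (53 points), by the HOXB4 minus control difference of the host feature (x axis) and of the snoRNA feature (y axis), both log2. Filled points have a host feature that names the host alone, and the dotted line marks equal differences. Most points lie left of 0, and Snora31, Snora62, Snora75 and Snora41 lie far above the line.

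Members of a single host could be set against each other. In 7 such pairs the difference between the 2 members was compared between groups with a two-sided exact permutation test, in which 3 arrays against 3 cannot give a p below 0.10. Snord43 minus Snord83b, both in Rpl3, was 0.82, 0.31 and 1.05 in the control arrays, against 0.23, 0.09 and -0.59 with HOXB4. The groups did not overlap, the shift was -0.82 and the exact p was 0.10, or 0.467 after Benjamini-Hochberg adjustment over the 7 pairs. In Rpl23a, Snord4a differed by -0.28 and Snord42a by 0.13 (exact p = 0.20, adjusted 0.467). In Nop58, Snord70 differed by 0.17 and Snord11 by -0.15 (exact p = 0.30, adjusted 0.467), and in Ncl, Snord82 differed by 0.25 and Snora75 by 0.58 (exact p = 0.20, adjusted 0.467). Snord49a and Snord49b, and Snora73a with each feature of Snora73b, shifted apart by at most 0.09 (exact p = 0.40 to 0.70, adjusted 0.467 to 0.70).

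The proteins that bind the RNAs were read from the same fit, and none passed the adjusted test. In the H/ACA core, all 4 genes lay below 0. Nhp2 stood at 11.07, 10.77 and 10.53 in the control arrays, against 10.24, 10.45 and 10.20 with HOXB4, without overlap, and differed by -0.49 (SE 0.16). Nop10 also had no overlap and differed by -0.17 (SE 0.10), while the pseudouridine synthase gene Dkc1 and Gar1 differed by -0.20 (SE 0.13) and -0.24 (SE 0.12). In the C/D core, the methyltransferase gene Fbl differed by -0.20 (SE 0.11) and Nop58 by -0.19 (SE 0.17); Nop56 and Snu13 had no feature of their own. Of 10 measured assembly factors, 9 lay below 0 and 5 had no overlap, with a median of -0.37. Wholly below lay 8.53% of all features and 14.1% of those with a mean of 8 or more, while 44.4% and 45.9% lay above 0. Among them Tcof1, Znhit6 and Ruvbl2 differed by -0.44 (SE 0.13), -0.59 (SE 0.18) and -0.34 (SE 0.11). All 12 processing genes lay below 0, with a median of -0.23, with Imp4 at -0.43 (SE 0.13), Nol6 at -0.51 (SE 0.19) and Wdr43 at -0.44 (SE 0.19). In Nhp2, Znhit6, Tcof1, Imp4, Nol6 and Wdr43 alike, HOXB4 2 lay nearer the controls than HOXB4 1 and 3. Marker sums, on the log2 scale, also set HOXB4 2 apart from HOXB4 1 and 3 in some of the cell type lists. For 5 cardiac mesoderm markers, all above background, the sum was 14.16, 13.27 and 13.76 in the control arrays, against 10.32, 13.16 and 10.27 with HOXB4. Hand1 and Tbx20 carried it, while Tnnt2 lay highest in HOXB4 1 and 3 and Nkx2-5 stayed between 4.94 and 5.15. The sum of 3 primitive erythroid markers was 12.65, 10.78 and 13.53 in the control arrays, against 10.09, 13.58 and 9.91 with HOXB4, and that of 4 neuronal markers, 3 of them above background, was 7.71, 8.23 and 8.66 against 10.31, 8.603 and 10.49. Tubb3 carried the neuronal sum, while Syp lay highest in HOXB4 2 (4.37, 4.73 and 4.41 with HOXB4). For 4 paraxial mesoderm markers, 2 of them above background, it was 7.51, 7.34 and 7.16 in the control arrays, against 7.07, 7.22 and 7.11 with HOXB4. There too HOXB4 1 and 3 lay below every control and HOXB4 2 did not, though the values lay close together. The pluripotent list parted the arrays otherwise. The sum of its 4 markers was 9.63, 9.27 and 9.95 in the control arrays, against 9.44, 10.74 and 10.60 with HOXB4. The part of these differences in the values of the protein genes, the host genes and the profiles that name a snoRNA with another gene was not tested.

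Of the noncoding host genes, 8 of 19 listed had a feature of their own, with a median difference of 0.04. Of these 8, Snhg5, Snhg11 and Snhg18 had the smallest p, and they differed by -0.67 (SE 0.23), 0.47 (SE 0.20) and -0.21 (SE 0.15). Listed hosts whose feature also names a Snora or Snord RNA are outside that median, and all of them lay below 0. Snhg4 differed by -0.80 (SE 0.36), Snhg8 by -0.57 (SE 0.15, no overlap) and Snhg12 by -0.55 (SE 0.27). Snhg3, Snhg1 and Snhg7 differed by -0.34 (SE 0.16), -0.24 (SE 0.18) and -0.21 (SE 0.26). The feature shared by Gas5 and Snord47 stood at 11.49, 11.17 and 11.002 in the control arrays, against 10.18, 11.14 and 10.52 with HOXB4, a difference of -0.61 (SE 0.25). Of the 40 distinct profiles that name a snoRNA together with another gene, 35 lay below 0, with a median of -0.14. Some of these profiles also served as host features above, among them those of Rps3, Nop56 and Snhg3. Their likeness to the hosts was thus partly fixed in advance. Among other small RNA classes, the medians were -0.15 for 6 Scarna, -0.12 for 23 Rnu or Rny and 0.01 for 929 microRNA profiles.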

How the data were processed

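Total RNA of 6 samples was hybridised to 1 array each. Per the labels' protocols, Trizol and then a column purified the RNA, of which 100 ng went into biotin labelling with the WT PLUS kit. The authors made and deposited 1 log2 value per feature and array. The submitters' processing notes name RMA, which summarises probes and equalises arrays, and the program Affymetrix Expression Console. Their versions and settings, and the genome build, were not stated there. Depth was judged by signal over background, where 23 background features had array medians of 3.06 to 3.15.

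Symbols are those of the platform annotation: 30604 features list 1 symbol, 2146 several and 33206 none. HOXB4 minus control was fitted over all 65956 features by lmFit and eBayes of limma 3.58.1 (R 4.3.3), with p-values two-sided and adjusted by Benjamini-Hochberg at 0.05. SE is the moderated standard error. Fold is 2 to the log2 difference. The limma fit was tested on simulated data, in which the noise of each feature and array was independent. Hosts are genes of a RefSeq table (GRCm38.p6) whose span contains the snoRNA gene; all 62 symbols were found there. That table gives no strand, so where several genes contain a snoRNA the one with the nearest feature number was taken. Equal replicate numbers did not deviate together (r = -0.29, -0.46 and -0.27), while unequal numbers gave r from -0.04 to 0.31. Deviations within a group cancel out, so these correlations balance and cannot exclude a pairing by experiment. The main fit used no pairing.

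Named were, per class and among features at least 1 log2 unit above background, the 4 per direction with the smallest p and the 4 brightest, members listed by name, core proteins, and 3 genes per other list. Members and lists were chosen with earlier results of these data known. The cell type markers served to check the sort. snoRNA sequences are not printed here. Plots were drawn with matplotlib 3.10.9 and tables made with pandas 2.3.3 and numpy 2.4.6 under Python 3.11.15.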

Additional observations from a re-analysis of the deposited data

How the results depend on the processing

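With 3 arrays a group, the number of arrays limits every value. The count of snoRNA features that passed was 0 in every alternative run: the replicate number as a block, each array left out, arrays centred on their medians, cyclic loess, a filter on dim features, trended robust priors, array weights, 1 feature per gene, every feature counted and symbols updated. With the replicate block the smallest adjusted p of a member was 0.756. Without HOXB4 2, 40 features of the whole array passed, 0 of them snoRNAs. The C/D median ran from -0.21 (without control 3) to 0.15 and the H/ACA median from -0.02 to 0.29 when 1 array was left out, and with array weights they were -0.0022 and 0.08. Counts without overlap ran over the arrays left out from 2 to 6 (H/ACA higher), 0 to 4 (H/ACA lower), 1 to 5 (C/D higher) and 2 to 14 (C/D lower). Over all features the share in these runs was 8.82% to 11.8% higher and 11.2% to 18.4% lower. With all 6 arrays it was 5.85% and 8.53%, so the smaller groups raised it for every kind of feature. Signs turned when 1 array was left out for these features with small differences: Snord69 (-0.00032 to 0.083), Snord49b (-0.0021 to 0.34), Snord110 (-0.24 to 0.13), Snora16a (-0.29 to 0.10), Snora21 (-0.17 to 0.12), Snord14a (-0.21 to 0.061), Snord118 on chromosome 19 (-0.37 to 0.036), Snord13 on chromosome 8 (-0.15 to 0.67) and unmapped (-0.11 to 0.73), Snora73a (-0.075 to 0.29), and Snora73b on chromosome 4 (-0.11 to 0.26) and unmapped (-0.046 to 0.30). With cyclic loess Snord110 and Snora21 turned to 0.0041 and 0.0092. The causes were not tested.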
